A study of Medicago truncatula with 9 samples.

Results

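The miRNAs described here are the miR160 and miR167 entries of a small RNA count table from Medicago truncatula seedlings. They were taken by name, as every known entry called mtr-miR160 or mtr-miR167 with any letter and arm, which gave 9 of the 905 entries in the table, 6 of miR160 and 3 of miR167. Entire seedlings of the line R108 were used for small RNA sequencing in 3 conditions, with 3 libraries in each. The alkali libraries (AS1 to AS3) came from seedlings kept for 72 h in sodium carbonate with sodium bicarbonate (5 mM), the salt libraries (SS1 to SS3) from sodium chloride with sodium sulfate (20 mM), and the control libraries (DW1 to DW3) from distilled water. All seedlings shared the genotype, the harvest time and germination on filter paper in dishes. The solutions differed in concentration as well as in kind. The methods give a single dish for each condition and do not say whether the replicates came from separate dishes, so the p-values measure the spread between these libraries. Whole seedlings were extracted, so more or fewer cells expressing a miRNA cannot be told apart from more or less of it per cell.

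miR160 and miR167 both act on auxin response factors (ARFs), the transcription factors that bind the promoters of auxin-regulated genes. In Arabidopsis, miR160 guides cleavage of the mRNAs of the repressing factors ARF10, ARF16 and ARF17, and miR167 those of the activating factors ARF6 and ARF8. Plant miRNAs pair with their targets along nearly the whole length, and pairing at the 5′ end counts most. In Arabidopsis, miR160 is known for its roles in germination, root cap formation and leaf shape, and miR167 for fertility and adventitious rooting.

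The mature sequences show which entries share a sequence. Sequences were available for 7 of the 9 entries, from the supplementary tables of the study, and made 4 distinct sequences. They are written 5′ to 3′ with the seed, bases 2 to 8, in capitals.
mtr-miR160a, mtr-miR160b, mtr-miR160d and mtr-miR160e: uGCCUGGCucccuguaugcca
mtr-miR160c: uGCCUGGCucccugaaugcca
mtr-miR167b-5p: uGAAGCUGccagcaugaucug
mtr-miR167a: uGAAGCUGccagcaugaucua
The miR160 sequences have the seed GCCUGGC and the miR167 sequences the seed GAAGCUG. Counted from the 5′ end, mtr-miR160c differed from mtr-miR160e by U15A, and mtr-miR167a differed from mtr-miR167b-5p by G21A, the last base. Both changes lie outside the seed. No sequence is given here for mtr-miR160f (21 nt) and mtr-miR167b-3p (20 nt), the opposite arm of mtr-miR167b-5p. Among 134 known miRNAs with a sequence in those tables, 0 outside the families came within 2 substitutions of these sequences. Genome positions were not used here.

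The 4 miR160 entries that share a sequence had nearly the same counts. Their counts differed by 0 to 5 reads within a library, at most 2.03% of the higher count, and mtr-miR160b and mtr-miR160e were identical in every library. They are treated as 1 measurement written in 4 rows, and mtr-miR160e stands for them below. How the authors divided reads among identical sequences, or between sequences that differ in 1 base, is not given in the sources used here.

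The total miRNA count of a library was 4135854 to 6503979 in alkali, 3918174 to 7191272 in salt and 3746957 to 4554748 in distilled water. Scaling used TMM (trimmed mean of M-values), and levels are given as counts per 1000000 of the scaled total (CPM). A read covers a whole miRNA, so CPM was not divided by length. The TMM factors were 0.768 to 0.953 in alkali, 0.871 to 1.07 in salt and 1.07 to 1.35 in distilled water, so the alkali and distilled water factors did not overlap. A lower factor raises the CPM. mtr-miR5213-5p alone took 39.4% to 43.4% of the counts in alkali, 29.0% to 42.4% in salt and 33.6% to 51.8% in distilled water. Conditions were compared by edgeR's quasi-likelihood test on all 9 libraries, with Benjamini-Hochberg adjustment over the 647 entries with enough counts. The words rose and fell are kept for entries whose fold change exceeded 1.5 with an adjusted p below 0.05. Of the 9 entries, 8 had enough counts for the test, and mtr-miR160c did not.

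The 2 families were of very different abundance. mtr-miR167b-5p was the 12th most abundant of all 905 entries by mean share of the counts, and mtr-miR167a was the 51st. mtr-miR160e ranked 237, mtr-miR167b-3p 410, mtr-miR160f 559 and mtr-miR160c 671. In alkali mtr-miR167b-5p averaged 11132 CPM, mtr-miR167a 1437 CPM and mtr-miR160e 66.1 CPM.

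**Figure D1:**
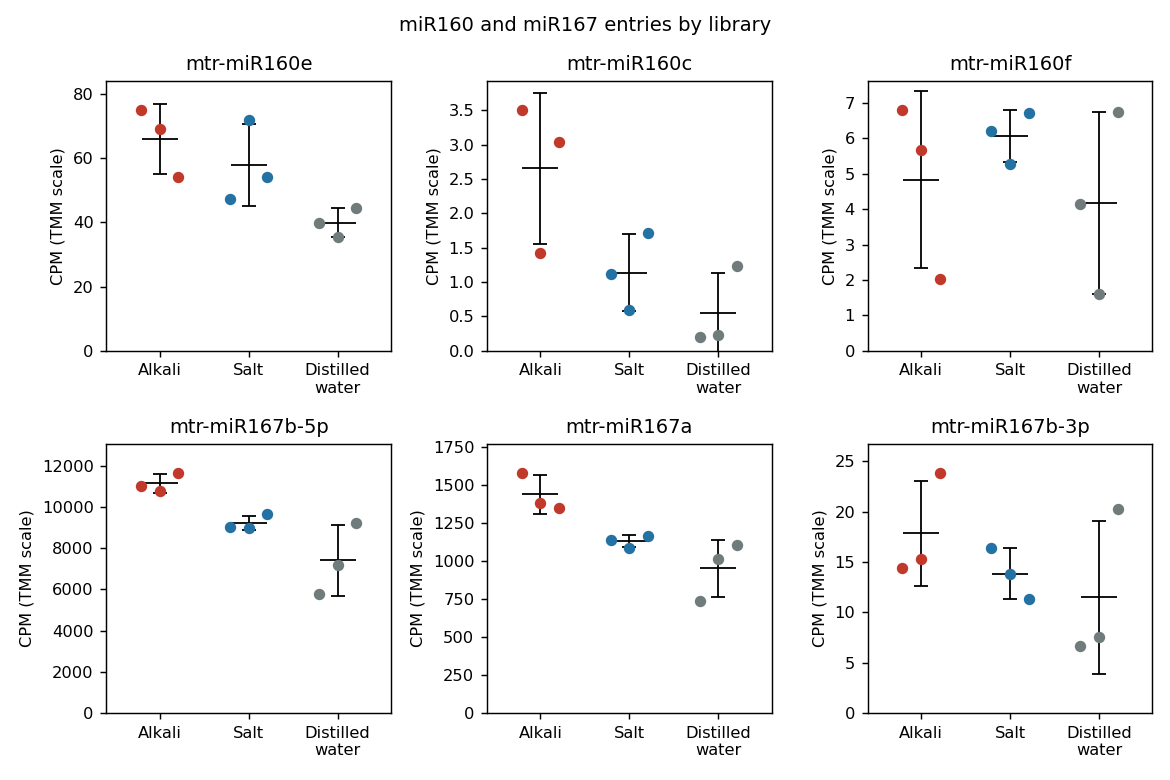
Level of 6 entries in each library, in CPM on the TMM scale (vertical axis, from 0), for alkali, salt and distilled water seedlings. Points are libraries in the order of their numbers, and bars are the mean ± SD (n = 3 each), cut off at 0. For mtr-miR160e, mtr-miR160c, mtr-miR167b-5p and mtr-miR167a the lowest alkali library was above the highest distilled water library, while mtr-miR160f and mtr-miR167b-3p overlapped.

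In alkali, the abundant miR160 sequence and both miR167 5p sequences rose against distilled water, with log2 fold changes of 0.59 to 0.73. Of the 8 entries tested, 6 rose and 0 fell: mtr-miR160a, mtr-miR160b, mtr-miR160d, mtr-miR160e, mtr-miR167a and mtr-miR167b-5p. Over all 647 entries, 17.2% were called in this comparison and 8.66% rose. Since 4 of the 6 are the same sequence, the calls stand for 3 sequences. DESeq2 called 6 of the 8 (18.7% of all entries) and limma-voom 6 (17.8%). The CPM of the groups did not overlap for 6 of the 8, against 34.6% of all entries, and these 6 again stand for 3 sequences. Without AS1, edgeR called 0 of the 8, and 4.68% of all entries rose. Both miR167 calls were also lost with only the alkali and distilled water libraries in the fit (8.36% of all entries rose). They were lost as well with a stricter filter (100 counts in 3 libraries, 7.89%) and with library sizes of clean reads (5.41%). Each of these left the 4 same-sequence miR160 entries. With no filter on low counts, mtr-miR167b-5p alone of the 6 lost its call (adjusted p = 0.0563 from edgeR).

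mtr-miR160e, the ARF10/16/17 regulator, was at 75.1, 69.2 and 54.1 CPM in AS1, AS2 and AS3, against 39.9, 35.3 and 44.4 CPM in DW1, DW2 and DW3. Every alkali library was above every distilled water library. Its log2 fold change was 0.73, or 1.66-fold (standard error 0.199, adjusted p = 0.0153 from edgeR), and the entries mtr-miR160a, mtr-miR160b and mtr-miR160d were at 0.73 each. The call on these 4 entries was lost without AS1 (adjusted p = 0.0764 from edgeR), the alkali library with the highest mtr-miR160e level.

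mtr-miR167b-5p, the main miR167 sequence, was at 10987, 10752 and 11658 CPM in AS1, AS2 and AS3, against 5779, 7206 and 9232 CPM in DW1, DW2 and DW3. The alkali libraries lay close together at 11132 ± 470 CPM, while the distilled water libraries spread over 7406 ± 1735 CPM (SD, n = 3 each). The groups did not overlap, with DW1 the lowest and DW3 the highest of the distilled water libraries. Its log2 fold change was 0.59 (standard error 0.198, adjusted p = 0.0425 from edgeR). It lay just over the fold threshold, and the call was lost when any 1 of the 9 libraries other than DW3 was left out (adjusted p of 0.0514 to 0.121 from edgeR).

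mtr-miR167a, which differs from it in the last base, was at 1580, 1381 and 1350 CPM in AS1, AS2 and AS3, against 739, 1012 and 1103 CPM in DW1, DW2 and DW3. These groups did not overlap either. The log2 fold change was 0.60 (standard error 0.18, adjusted p = 0.0251 from edgeR), a 1.51-fold change that also lay just over the threshold. The call was lost without DW1, DW2 or AS1 and in the fit of only those groups (adjusted p = 0.0507 from edgeR), and with the stricter filter the log2 fold change was 0.53, under the fold threshold.

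The other arm and the rare miR160 entries varied more. mtr-miR167b-3p, whose targets were not examined here, was at 14.4, 15.3 and 23.9 CPM in AS1, AS2 and AS3, against 6.72, 7.57 and 20.3 CPM in DW1, DW2 and DW3. DW3 stood above AS1 and AS2, so the groups overlapped. Its log2 fold change of 0.61 (standard error 0.339) did not pass the test (adjusted p = 0.161 from edgeR), and it was 1.38 without DW3 (adjusted p = 0.000228 from edgeR).

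mtr-miR160f was at 6.81, 5.68 and 2.03 CPM in the alkali libraries, against 4.15, 1.61 and 6.75 CPM in the distilled water libraries. It had 8 to 33 counts per library in alkali and 7 to 33 in distilled water. The groups overlapped over nearly their whole range, and the log2 fold change of 0.23 (standard error 0.430, adjusted p = 0.667 from edgeR) was smaller than its error.

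mtr-miR160c, the variant with another base at position 15, was read 17, 8 and 12 times in AS1, AS2 and AS3, against 1, 1 and 6 times in DW1, DW2 and DW3. On the CPM scale the groups did not overlap, with the lowest alkali library at 1.42 CPM and the highest distilled water library at 1.23 CPM. With no filter on low counts, edgeR gave it a log2 fold change of 2.21 in alkali (standard error 0.636 and adjusted p = 0.00648). In that fit of 876 entries 7.53% rose. For salt over distilled water the same fit gave mtr-miR160c 1.17 (adjusted p = 0.407 from edgeR). As a share of all miRNA counts the groups overlapped, at 1.23 to 2.90 per 1000000 in alkali and 0.254 to 1.32 per 1000000 in distilled water.

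The alkali calls depended on how libraries were scaled. On the deposited TPM scale, which divides each count by the library's total miRNA count, mtr-miR160e was at 57.7, 60.0 and 51.5 TPM in AS1, AS2 and AS3, against 53.9, 39.0 and 47.6 TPM in DW1, DW2 and DW3. mtr-miR167b-5p was at 8441, 9319 and 11108 TPM in the alkali libraries, against 7803, 7961 and 9905 TPM in the distilled water libraries. Both overlapped between the groups, and of the 8 entries tested 1, mtr-miR167a, did not, against 49.9% of all 647 entries on this scale. With total miRNA counts as library size, 0 of the 8 entries were called (3.55% of all entries rose), mtr-miR160e had a log2 fold change of 0.27 (adjusted p = 0.334 from edgeR) and mtr-miR167b-5p of 0.17 (adjusted p = 0.410 from edgeR).

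The same change of scale moved all miRNAs. The median log2 fold change in alkali over the 647 entries was -0.17 with TMM, -0.06 with DESeq2's size factors, -0.21 with library sizes of clean reads, -0.61 with total miRNA counts and -0.68 with total counts less mtr-miR5213-5p. Entries that rose and fell numbered 56 and 55 with TMM, 82 and 47 with size factors, 35 and 76 with clean reads, 23 and 255 with total counts and 22 and 257 with total counts less mtr-miR5213-5p. A change of library sizes shifts every entry's log2 fold change by nearly the same amount. The distance of an entry from the median is therefore nearly fixed in advance and is no test of a rise. mtr-miR160e was 0.88 to 0.90 above the median under these 5 scalings, mtr-miR167a 0.74 to 0.78 and mtr-miR167b-5p 0.72 to 0.80. With clean reads, 4 members rose, the same-sequence miR160 entries, and 5.41% of all entries rose. In all 5 scalings mtr-miR160e, mtr-miR167a and mtr-miR167b-5p had a positive log2 fold change in alkali. Within the 647 entries, the TMM log2 fold change in alkali was at percentile 92.4 for mtr-miR160e, 89.6 for mtr-miR167a and 89.2 for mtr-miR167b-5p.

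**Figure D2:**
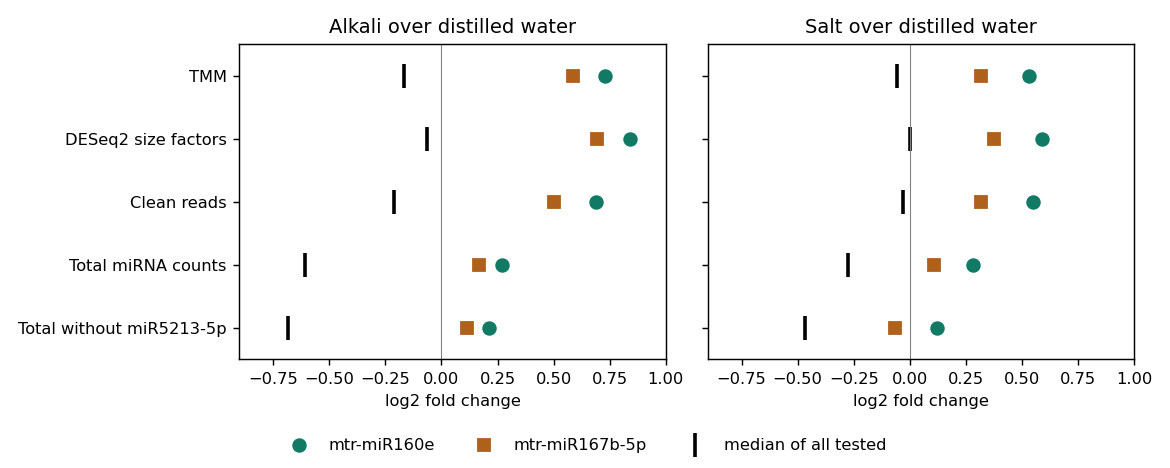
log2 fold change (horizontal axis) of mtr-miR160e (circles), mtr-miR167b-5p (squares) and the median of all tested entries (vertical bars) under 5 ways of scaling the libraries. In alkali over distilled water the median lay between -0.68 and -0.06 and mtr-miR160e between 0.21 and 0.84. The distance between them is nearly constant because rescaling shifts all entries nearly alike.

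In salt, the tested miR160 and miR167 entries had positive log2 fold changes against distilled water with TMM, while mtr-miR167a, mtr-miR167b-3p and mtr-miR167b-5p were at -0.15, -0.06 and -0.06 with total counts less mtr-miR5213-5p. edgeR called 0 of the 8 entries tested, against 8.19% of all 647 entries. At an unadjusted p under 0.05 there were 4 (21.0% of all entries), the same-sequence miR160 entries, which count as a single measurement. DESeq2 and limma-voom called 0 (6.18% and 7.88% of all entries). mtr-miR160e was at 47.3, 72.1 and 54.3 CPM in SS1, SS2 and SS3, against 39.9, 35.3 and 44.4 CPM in DW1, DW2 and DW3. On the CPM scale the groups did not overlap, although SS1 was close to DW3. Its log2 fold change was 0.53 (standard error 0.200, adjusted p = 0.0946 from edgeR), a 1.44-fold change below the fold threshold. With only the salt and distilled water libraries it was 0.563 (adjusted p = 0.0407 from edgeR). Without AS3 it was 0.576 (adjusted p = 0.0293 from edgeR), and only the fold threshold kept these 2 from being called. Without SS2 it was 0.347 (adjusted p = 0.489 from edgeR).

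For miR167 the salt libraries overlapped distilled water. mtr-miR167b-5p was at 9044, 8980 and 9634 CPM in SS1, SS2 and SS3, against 5779, 7206 and 9232 CPM in DW1, DW2 and DW3. SS1 and SS2 were below DW3. Its log2 fold change was 0.32 (standard error 0.198, adjusted p = 0.355 from edgeR). mtr-miR167a was at 1140, 1087 and 1166 CPM in the salt libraries, with a log2 fold change of 0.25 (adjusted p = 0.399 from edgeR). mtr-miR167b-3p was at 16.4, 13.8 and 11.3 CPM (log2 fold change 0.25) and mtr-miR160f at 6.22, 5.27 and 6.72 CPM (log2 fold change 0.54), and neither passed the test. mtr-miR160c had 5, 2 and 13 counts in the salt libraries. On the CPM scale the groups did not overlap for 4 of the 8 entries tested, against 24.1% of all entries. These 4 were the same-sequence miR160 entries, which are a single measurement, so the count says little against that share. On the TPM scale every member overlapped. There mtr-miR160e was at 50.7 to 62.8 TPM in salt and 39.0 to 53.9 TPM in distilled water. Without DW3, edgeR called 5 entries in salt, the 4 miR160 entries and mtr-miR167b-3p, where 10.6% of all entries rose, and 8 of the 9 then tested in alkali, where 16.1% rose. Entries that rose and fell in salt numbered 26 and 27 with TMM, 13 and 46 with total counts and 1 and 38 with total counts less mtr-miR5213-5p, and the members called were 0 in each.

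Between the treatments, edgeR called 0 of the 8 entries in alkali against salt, while 4.02% of all entries were called. DESeq2 and limma-voom also called 0 (3.86% and 4.02% of all entries), and 0 members had an unadjusted p below 0.05 (17.6% of all entries). Both treatments are compared with the same distilled water libraries, so their log2 fold changes are not independent. The log2 fold change of alkali over salt was 0.20 for mtr-miR160e (standard error 0.197, adjusted p = 0.684 from edgeR) and -0.01 with total miRNA counts, where the other 3 same-sequence entries were also just below 0. For the miR167 sequences it was 0.35 for mtr-miR167a (standard error 0.179, adjusted p = 0.317 from edgeR) and 0.27 for mtr-miR167b-5p (standard error 0.198, adjusted p = 0.538 from edgeR). On the CPM scale the alkali and salt libraries of both did not overlap. These were 2 of the 8 entries tested, near the 25.0% of all entries, and on the TPM scale both overlapped. mtr-miR160f was the 1 tested member with a negative value, -0.31 (standard error 0.410, adjusted p = 0.762 from edgeR). The order of the mean CPM was alkali, salt and distilled water for mtr-miR160e, mtr-miR160c, mtr-miR167b-5p, mtr-miR167a and mtr-miR167b-3p, and edgeR called no difference between neighbours in that order for those tested. For mtr-miR160f it was salt, alkali and distilled water. By mean TPM mtr-miR160e was highest in salt, at 56.9 TPM, against 56.4 TPM in alkali and 46.9 TPM in distilled water. mtr-miR160f was then at 6.12 TPM in salt, 4.87 TPM in distilled water and 4.03 TPM in alkali. The other entries named kept their order.

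**Figure D3:**
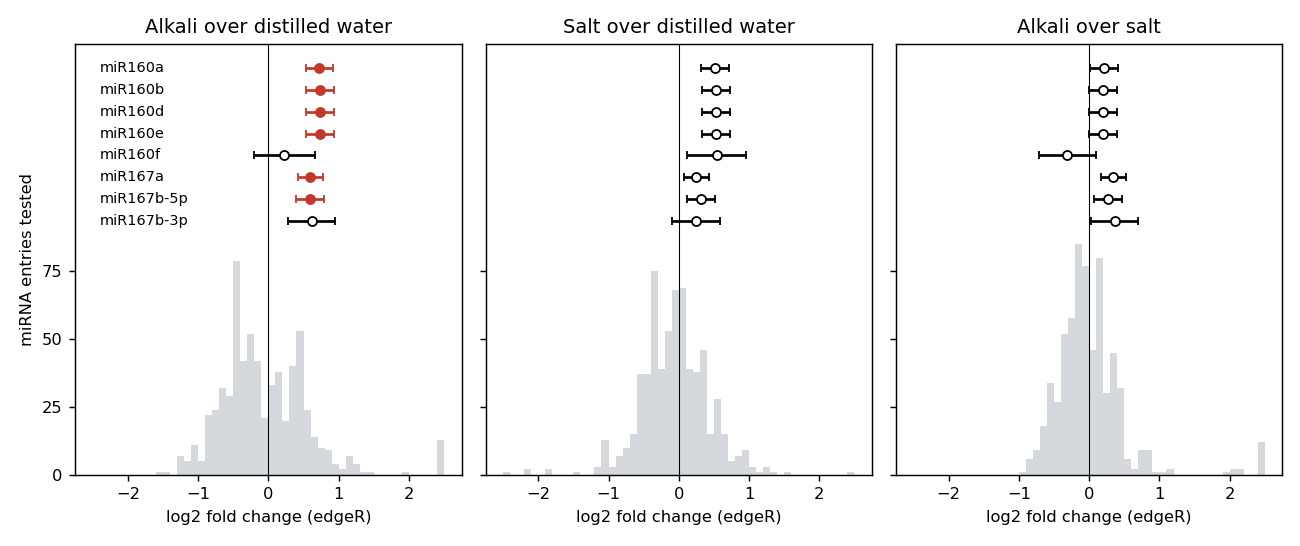
log2 fold change from edgeR (horizontal axis) of the 8 members tested, ± standard error, above the distribution of all 647 entries tested (grey bars, number of entries, with values beyond 2.5 drawn in the end bars). Filled red points passed the test. With TMM scaling all 8 members lay above 0 in alkali and in salt against distilled water, and 7 of 8 in alkali against salt.

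As a list, the 8 tested members had a median log2 fold change of 0.67 in alkali, against -0.17 for all 647 entries, and all 8 were positive, against 42.3% of all entries, although mtr-miR160f was at -0.24 with total miRNA counts. In salt the median was 0.52, against -0.06 for all entries, with all 8 positive under TMM, against 43.4%. In alkali over salt it was 0.20, against -0.06. Because 4 of the 8 are 1 sequence, the medians and the counts of positive entries lean on miR160.

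Ratios of counts within a library do not depend on the scaling. mtr-miR160e had 6.83, 6.43 and 4.64 reads for every 1000 of mtr-miR167b-5p in AS1, AS2 and AS3, 5.23, 8.03 and 5.63 in SS1, SS2 and SS3, and 6.91, 4.91 and 4.81 in DW1, DW2 and DW3. The 3 conditions overlapped, and the balance of the families did not differ beyond the spread between libraries. The ratio in alkali was 1.08 times that in distilled water (exact permutation test, two-sided p = 1.0) and in salt 1.13 times (exact permutation p = 0.5), and in alkali it was 0.952 times that in salt (exact permutation p = 0.9). With 3 libraries a group, this test cannot give a p under 0.1.

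Within miR167, mtr-miR167a was a steady fraction of mtr-miR167b-5p. It stood at 14.4%, 12.8% and 11.6% in AS1, AS2 and AS3, 12.6%, 12.1% and 12.1% in SS1, SS2 and SS3, and 12.8%, 14% and 11.9% in DW1, DW2 and DW3. The ratio in alkali was 0.999 times that in distilled water (exact permutation p = 1.0). The 3p arm made 0.131%, 0.142% and 0.205% of mtr-miR167b-5p in the alkali libraries, 0.182%, 0.153% and 0.118% in the salt libraries and 0.116%, 0.105% and 0.219% in the distilled water libraries. AS3 and DW3 had the most of it, and the conditions overlapped.

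Within miR160, the rare variants were less steady. mtr-miR160c was at 4.67%, 2.05% and 5.63% of mtr-miR160e in AS1, AS2 and AS3, 2.35%, 0.813% and 3.16% in SS1, SS2 and SS3, and 0.495%, 0.649% and 2.76% in DW1, DW2 and DW3. The mean log2 ratio in alkali was 1.97 above that in distilled water, but AS2 was below DW3 (exact permutation p = 0.2). mtr-miR160f was at 9.07%, 8.21% and 3.76% in the alkali libraries, 13.1%, 7.32% and 12.4% in the salt libraries and 10.4%, 4.55% and 15.2% in the distilled water libraries, with overlap throughout. Of 15 such comparisons over 5 ratios, 0 reached the smallest p of 0.1, and every Benjamini-Hochberg adjusted value was 1.0.

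**Figure D4:**
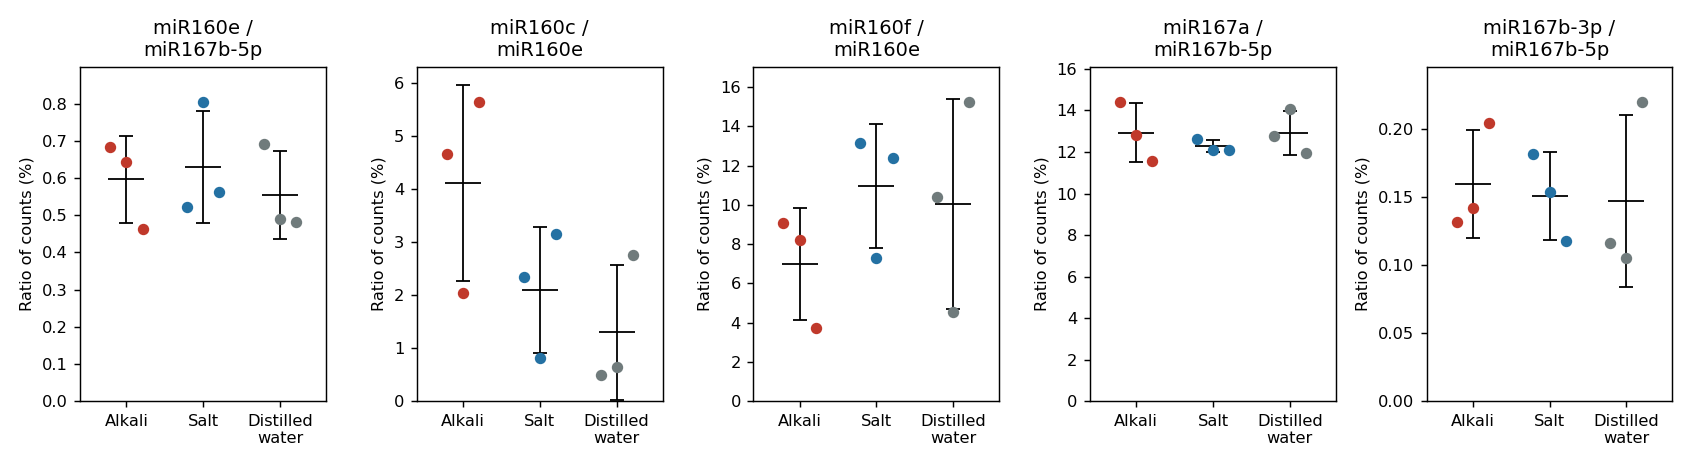
Ratio of the counts of 2 entries within each library, in percent (vertical axis, from 0), for alkali, salt and distilled water. Points are libraries in the order of their numbers, and bars are the mean ± SD (n = 3 each). mtr-miR167a kept to 11.6% to 14.4% of mtr-miR167b-5p, while mtr-miR160c ranged from 0.495% to 5.63% of mtr-miR160e.

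The other miRNA families of auxin signalling had no entry that passed the test. miR164 targets NAC transcription factors, miR390 triggers the small RNAs of TAS3 that act on other ARFs, and miR393 targets the TIR1/AFB auxin receptors. Of their 8 entries, 6 had enough counts, and edgeR, DESeq2 and limma-voom called 0 of them in alkali and in salt, where edgeR called 17.2% and 8.19% of all entries. None had an unadjusted p below 0.05, against 41.9% of all entries in alkali and 21.0% in salt. The 6 entries stand for fewer measurements. mtr-miR164a, mtr-miR164b and mtr-miR164c had nearly the same counts, and mtr-miR393a and mtr-miR393b-5p had identical counts. With so few, a count of 0 is near the shares of called entries, and 0 at an unadjusted p below 0.05 says little. In alkali mtr-miR390 had the largest log2 fold change of these 6, at 0.46 by edgeR (standard error 0.222 and adjusted p = 0.121). It was at 236, 133 and 158 CPM in AS1, AS2 and AS3, against 95.5, 111 and 177 CPM in DW1, DW2 and DW3, and DW3 was above AS2 and AS3. Without DW3 it was called in alkali (log2 fold change 0.83) and in salt (0.71). mtr-miR164b, the most abundant miR164 entry, was at 168 ± 21.9 CPM in alkali, 169 ± 18 in salt and 160 ± 36.2 in distilled water (SD, n = 3 each). mtr-miR393a, with the same counts as mtr-miR393b-5p, was at 3.40 ± 0.263 CPM in alkali, 4.45 ± 2.78 CPM in salt and 3.58 ± 0.444 CPM in distilled water (SD, n = 3 each).

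The entries with the most similar pattern were ranked by Pearson's r. The candidates were 342 other entries with a mean of at least 10 CPM. Entries were merged only where a known sequence or all 9 counts were identical, so some may share reads. The 5 whose log2 CPM followed mtr-miR160e most closely over the 9 libraries were mtr-miR156j (r = 0.907, rho = 0.850), mtr-miR156i-5p (0.904, 0.917), mtr-miR5251 (0.900, 0.900), mtr-miR171f (0.892, 0.967) and mtr-miR2086-5p (0.879, 0.933). Without DW2 and AS1, the libraries farthest from the median of mtr-miR160e, these correlations were 0.828 to 0.936. miR156 is the SPL regulator of juvenile growth and miR171 targets GRAS genes. The entries closest to mtr-miR167b-5p were mtr-miR156c-3p (r = 0.952, rho = 0.833) and the predicted miRNAs unconservative_1_32743 (0.942, 0.833), unconservative_3_41995 (0.941, 0.983), unconservative_8_14314 (0.936, 0.983) and unconservative_4_44216 (0.925, 0.783). Without DW1 and DW2 these r values were 0.446 for unconservative_4_44216, whose likeness rests on those libraries, and 0.620 to 0.842 for the others. The means of unconservative_3_41995 and unconservative_8_14314 were 180 and 179 CPM, and whether they share reads was not tested. mtr-miR160e and mtr-miR167b-5p themselves had r = 0.704, and mtr-miR167a and mtr-miR167b-5p r = 0.944. All points share the library scaling, so these correlations over 9 libraries are descriptions only.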

How the data were processed

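Small RNA libraries of 9 seedling samples were analysed. The authors kept clean reads of 18 to 30 nt, set aside those matching other non-coding RNA (Bowtie), and mapped the remainder to genome version Mt4.0 and to miRBase 22. The authors deposited raw read counts per miRNA entry, with a mature length, and TPM values, which equal the counts per 1000000 of the library's miRNA total. Columns were matched to libraries through the sample labels, and 0 were left over. Total miRNA counts were 3746957 to 7191272 per library, so entries of a few reads are known only to within a few counts.

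Tests were run with edgeR 4.0.16 under R 4.3.3 (filterByExpr with a minimum count of 10, TMM, robust quasi-likelihood fits by condition over all 9 libraries). CPM uses the TMM totals, and correlations used log2 CPM with a prior count of 2. A standard error is the log2 fold change over the root of its F statistic. Ratios of counts were tested by exact permutation in scipy 1.17.1; the ratios within a family were chosen after the data were seen. Alternatives were DESeq2 1.42.0, limma-voom (limma 3.58.1), other library scalings, filters and thresholds, 1 entry per identical sequence or count profile, a fit of only the compared groups, each library left out and a replicate block. Leaving out DW1 with AS1 and leaving mtr-miR5213-5p out of the totals were added later. The scripts were tested on simulated data. The members, lists and alternatives were chosen with earlier results of these data known. Named were all members, the most abundant or called entries of miR164, miR390 and miR393, the 5 entries most correlated with mtr-miR160e and with mtr-miR167b-5p, and entries within 2 substitutions of a member. miRNA tables of whole seedlings hold no accepted cell type markers, and none were used. RT-qPCR and target genes were not analysed here.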

Additional observations from a re-analysis of the deposited data

How the results depend on the processing

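The number of members called in alkali against distilled water was 6, where 8.66% of all entries rose. It was 0 with total miRNA counts (3.55% of all entries rose), with total counts less mtr-miR5213-5p (3.40%) and without DW1 and AS1 (4.29%). A count of 0 is near those shares. With identical sequences counted once it was 3 (8.62%), where 1 entry stands for the 4 miR160 entries. It was 4, the same-sequence miR160 entries, with clean reads (5.41%), with at least 100 counts in 3 libraries (7.89%) and with only the 2 groups compared (8.36%). With no filter on low counts (7.53%), mtr-miR167b-5p was not called (adjusted p = 0.0563 from edgeR), while mtr-miR160c was. Leaving out 1 library gave 0 to 8: 0 without AS1 (4.68% of all entries rose), 4 without DW1 (6.71%) or DW2 (6.83%), 5 without AS3 (10.3%) and 8 without DW3 (16.1%). mtr-miR160c was tested without DW1, DW2, DW3, AS2 or any salt library. In salt the number called was 0, where 8.19% of all entries were called. It was 0 to 5 when 1 library was left out, with 5 without DW3 (10.6% of all entries rose). In alkali against salt it was 0 in every setting run, where 4.02% of all entries were called with all 9 libraries. Entries that rose and fell there numbered 18 and 0 of 662 without SS3 and 27 and 36 of 661 without AS3. A count of 0 is near such shares. The other auxin miRNAs had 0 calls in each comparison, and 0 to 1 without 1 library in alkali and in salt. With the replicate block 4 members, the same-sequence miR160 entries, were called in alkali (6.80% of all entries rose) and 0 in the other comparisons. mtr-miR167a and mtr-miR167b-5p then had adjusted p of 0.0605 and 0.0788 from edgeR in alkali. Deviations of same-numbered libraries had correlations of -0.59 to 0.40 over 9 pairs, 3 of them over 0.1, so the numbers were not taken to pair the libraries. Whether same-numbered libraries shared a batch is not given in the sources used here. The cause of these changes was not tested.

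The log2 ratio of mtr-miR160e to mtr-miR167b-5p differed from distilled water by 0.11 in alkali (-0.00014 to 0.28 without 1 library) and 0.18 in salt (-0.0092 to 0.35), and between alkali and salt by -0.07 (-0.19 to 0.12).

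Several log2 fold changes that were not called changed sign. With total miRNA counts those against distilled water were -0.15 in salt and -0.37 in alkali for mtr-miR164b, -0.013 in salt for mtr-miR393a and -0.24 in alkali for mtr-miR160f. For alkali over salt they were -0.00044, -0.012, -0.014 and -0.012 for mtr-miR160a, mtr-miR160b, mtr-miR160d and mtr-miR160e and -0.11 for mtr-miR390. With total counts less mtr-miR5213-5p they were -0.15 for mtr-miR167a, -0.064 for mtr-miR167b-3p, -0.065 for mtr-miR167b-5p, -0.31 for mtr-miR164b, -0.020 for mtr-miR390 and -0.17 for mtr-miR393a in salt. In alkali they were -0.25 for mtr-miR160f, -0.42 for mtr-miR164b and -0.028 for mtr-miR390, and -0.0078 for mtr-miR390 in alkali over salt. Without DW1 and AS1 they were -0.025 in salt for mtr-miR167b-3p, -0.056, -0.10 and 0.056 in alkali for mtr-miR160f, mtr-miR164b and mtr-miR393a, and -0.16 in alkali over salt for mtr-miR390. With DESeq2 and with its size factors, mtr-miR393a was at 0.036 and 0.037 in alkali and mtr-miR164b at 0.046 in both for alkali over salt. With identical sequences once, mtr-miR164b was at 0.027 there. Leaving out 1 library gave mtr-miR160f -0.069 to 0.82 in alkali and -0.61 to 0.0061 in alkali over salt. mtr-miR164b ranged over -0.014 to 0.34 in salt, -0.033 to 0.34 in alkali and -0.11 to 0.082 in alkali over salt, mtr-miR390 over -0.16 to 0.28 in alkali over salt, and mtr-miR393a over -0.29 to 0.50, -0.11 to 0.079 and -0.58 to 0.21 in the same 3 comparisons.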
